A study of Mus musculus with 7 samples.

Results

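Fibroblasts release chemokines and cytokines, and 10 such genes were followed through fibroblasts and pluripotent cells: Ccl2, Ccl7, Cxcl1, Cxcl5, Ppbp, Cxcl12, Cxcl16, Il6, Il11 and Csf1. They were taken as a list of gene names, chosen with earlier results of these data known. Each was read through its probe set with exactly 1 gene symbol, and all 10 were found among the 19938 genes of the array. Each had a single such probe set. RNA from 7 mouse cultures was measured on 7 Affymetrix arrays, 1 array a culture. Induced pluripotent stem (iPS) line O4-1 was grown in N2B27(2i), where 2i stands for inhibitors of MEK and GSK3 (1 array), and OG2 embryonic stem (ES) cells were grown in the same medium (1 array). The iPS lines O4-1, O4-2 and O4-4, each derived by infecting mouse embryonic fibroblasts (MEFs) with Oct4, were grown in KSR medium (3 arrays). MEFs isolated at embryonic day 13.5 from 129/OG2 mice were grown in the medium named iCD1 (1 array) or in FBS medium (1 array). The label fields disagree in places, since every sample is described as iPS cells at day 3 after infection and the ES sample has fibroblasts as its source, so that titles and growth conditions were followed here. Values are log2 expression, where a difference of 1 is 2-fold. Only the KSR iPS lines were replicated (n = 3 lines), and the labels do not say whether they were cultured or processed apart, so p-values measure the spread between these 3 samples, which may be partly technical.

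Chemokines are small secreted proteins that attract cells bearing matching G protein-coupled receptors. The CC chemokines Ccl2 and Ccl7 attract monocytes through Ccr2, and the CXC chemokines Cxcl1, Cxcl5 and Ppbp, the precursor of a platelet chemokine, attract neutrophils through Cxcr2. Cxcl12 holds stem and progenitor cells near stromal cells through Cxcr4, and Cxcl16 is a membrane-bound ligand of Cxcr6. Il6 and Il11 are cytokines that signal through the shared receptor chain gp130, encoded by Il6st, to Jak kinases and Stat3, the route that LIF also uses in mouse pluripotent cells. Csf1 is the main growth and survival factor of macrophages. Fibroblasts make many of these factors after serum, wounding, or activation of NF-kappaB by Toll-like, interleukin-1 or TNF receptors. In the gene order of the RefSeq table, Cxcl5 and Ppbp are neighbours on chromosome 5 in a cluster that also holds Pf4, Cxcl3, Cxcl15, Cxcl1 and Cxcl2. Ccl2 and Ccl7 are neighbours on chromosome 11, followed by Ccl11, Ccl12 and Ccl8.

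RefSeq promoter windows (GRCm38.p6) were at hand for 6 of the 10 genes. The 250 bases before the start are shown for Ppbp and Cxcl12, which differed much between the MEF media, for Csf1, which had the largest fall in the iPS lines, and for Cxcl1, which was level between the MEF media. Capitals mark matches, on either strand, to the NF-kappaB consensus, to the AP-1 letters TGANTCA, to the CArG box (the binding sequence of serum response factor) and to the TATA box letters TATAAA.
Ppbp, chr5:90768268-90768517, plus strand: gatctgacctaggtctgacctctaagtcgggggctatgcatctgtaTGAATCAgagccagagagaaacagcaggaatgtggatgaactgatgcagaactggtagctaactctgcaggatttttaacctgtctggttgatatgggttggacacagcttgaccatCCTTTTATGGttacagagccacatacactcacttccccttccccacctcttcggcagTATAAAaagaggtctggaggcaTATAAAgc
Cxcl12, chr6:117168285-117168534, plus strand: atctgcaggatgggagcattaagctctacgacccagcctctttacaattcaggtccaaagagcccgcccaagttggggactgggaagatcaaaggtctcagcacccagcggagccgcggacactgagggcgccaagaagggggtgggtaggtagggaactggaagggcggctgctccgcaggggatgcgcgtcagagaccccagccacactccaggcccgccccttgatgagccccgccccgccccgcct
Csf1, chr3:107760470-107760719, minus strand: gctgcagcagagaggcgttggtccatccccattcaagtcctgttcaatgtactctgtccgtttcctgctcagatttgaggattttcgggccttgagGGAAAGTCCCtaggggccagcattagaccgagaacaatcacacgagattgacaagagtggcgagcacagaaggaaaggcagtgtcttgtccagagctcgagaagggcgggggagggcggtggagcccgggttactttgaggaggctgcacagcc
Cxcl1, chr5:90890995-90891244, plus strand: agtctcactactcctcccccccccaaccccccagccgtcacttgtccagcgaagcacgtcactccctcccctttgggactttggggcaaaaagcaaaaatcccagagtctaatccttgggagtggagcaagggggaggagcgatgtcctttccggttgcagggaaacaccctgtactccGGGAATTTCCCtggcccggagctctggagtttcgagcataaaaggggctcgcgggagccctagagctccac
The Ppbp window held, in this order, an AP-1 match, a CArG box match and 2 TATA box matches. The Csf1 window held 1 NF-kappaB match, on the minus strand of the window. The Cxcl1 window held 2 NF-kappaB matches, 1 on each strand, which overlap and are shown as a single capital run. None of the 4 motifs was found in the Cxcl12 window, which says only that these letters are not in it. The windows of Il6, which also differed much between the MEF media but between low values, and of Il11 are not shown. The Il6 window held an NF-kappaB match and an AP-1 match, and a window of Il11 held an AP-1 match. Of the 32851 windows of this length in the table, 3.9% held the NF-kappaB consensus, 6.75% the AP-1 letters, 1.47% the CArG box and 12.4% the TATA box. A match is a description of the letters, and no binding was measured.

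The cultures bore the markers of their labels. All 10 pluripotency markers rose in the KSR iPS lines against MEFs in limma, with a median level of 9.67 to 9.92 in the 3 lines, against 4.05 in iCD1 MEFs and 4.23 in FBS MEFs. It was 9.70 in line O4-1 in 2i and 9.59 in ES cells. Of 9 measured fibroblast markers, 7 fell in the KSR lines. Lines O4-1, O4-2 and O4-4 had median levels of 6.63, 6.99 and 7.54, against 10.61 and 9.24 in MEFs in iCD1 and in FBS. In 2i the median was 5.91 in line O4-1 and 7.25 in ES cells, the latter above KSR lines O4-1 and O4-2. All 9 fibroblast markers stayed above the low-value line described next on every array. Fewer cells of a type and less RNA per cell cannot be told apart in such bulk samples. The table has no detection calls, so the 1027 olfactory receptor genes, which these cells are not known to use, served as a gauge of low values, with 95% of them under 4.13 to 4.33 depending on the array. Probe sets differ in brightness, so this line describes low values and does not decide whether a gene is expressed. Ccl2, Ccl7, Cxcl1, Cxcl5, Cxcl12 and Csf1 lay above it on all 7 arrays. Il11 lay above it on 6 arrays and Cxcl16 on 5. Ppbp lay above it only in FBS MEFs, and Il6 on 0 arrays. Of the 10 genes, 6 had their highest value of the 7 arrays in FBS MEFs, as had 17.4% of all genes.

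**Figure D1:**
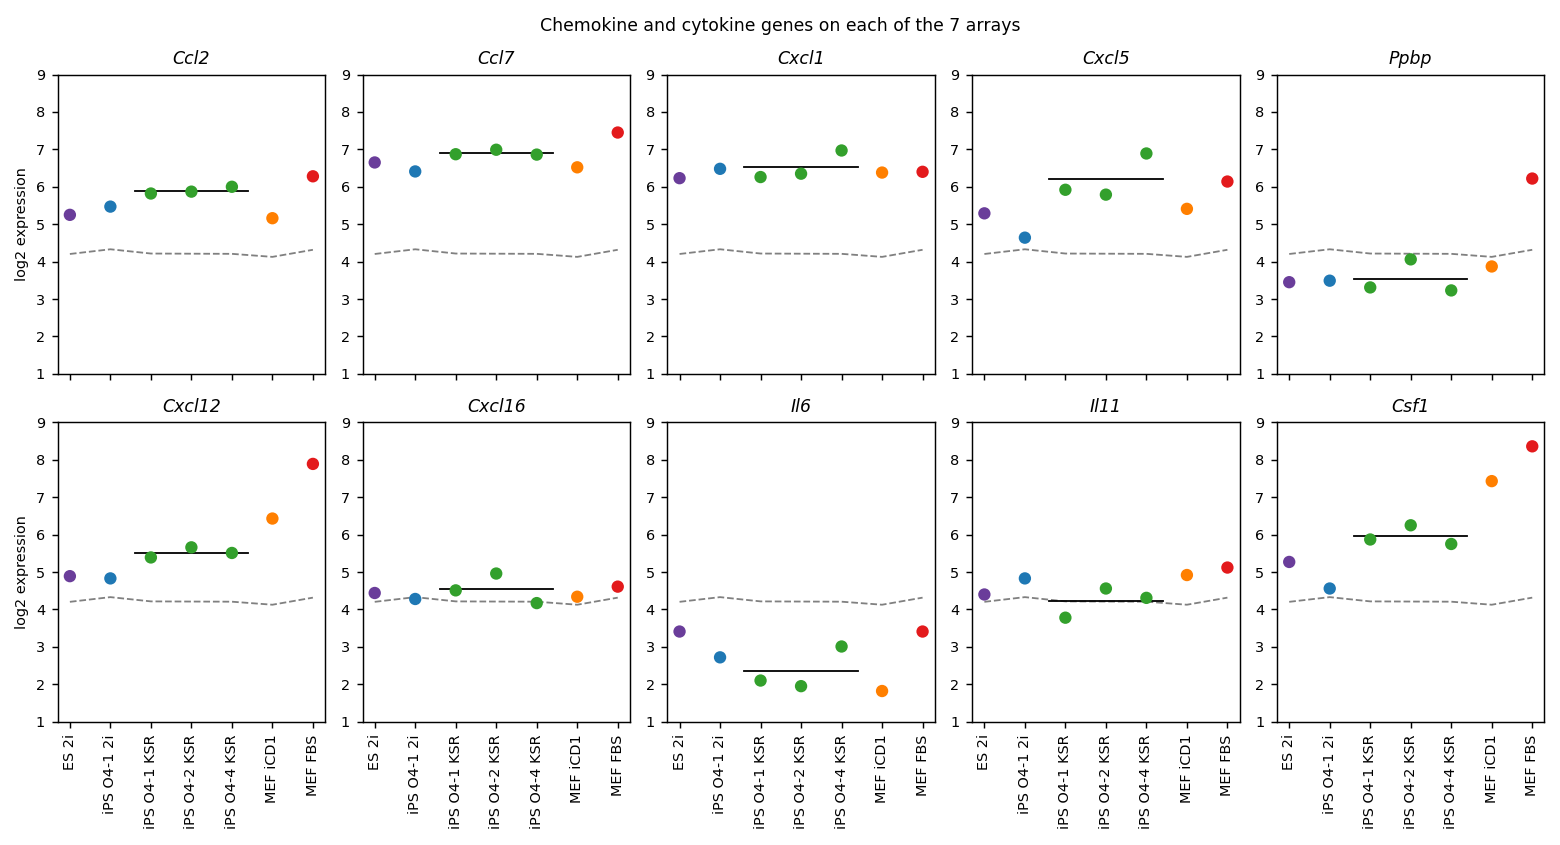
Levels of the 10 genes on each array, as log2 expression on the vertical axis. Points are single arrays, the black line is the mean of the 3 KSR iPS lines and the dashed line is the 95th percentile of olfactory receptor genes on each array. Csf1 and Cxcl12 are highest in the MEF arrays, Ppbp stands above the dashed line only in FBS MEFs, and Il6 stays under it throughout.

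MEFs in iCD1 were set against MEFs in FBS to see how the medium went with the output of these factors, with 1 array each and hence no test. All 10 genes were lower in iCD1, where 53.0% of all genes were lower by any amount. The median difference of the 10 was -0.93, against -0.02 over all genes. Ppbp, Il6, Cxcl12 and Ccl2 were lower by 2-fold or more, which held for 0.998% of all genes, and 0 of the 10 were higher by that much, as 1.7% of all genes were. Because the list was chosen with earlier results of these data known, these shares describe it and test nothing. As a yardstick, the difference was set against the range of the same gene among the 3 KSR lines. It was larger than that range for 6 of the 10 genes, all of them lower in iCD1, and 20.2% of all genes were lower by more than their range.

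The neutrophil chemokines differed to unlike extents. Ppbp was at 3.87 in iCD1 MEFs, under the low-value line, against 6.22 in FBS MEFs (-2.35). Counted from the low-value line on the iCD1 array, it was at least 4.26-fold lower in iCD1. Its neighbour Cxcl5 was at 5.41 in iCD1, against 6.14 in FBS, and this difference of -0.73 was smaller than the range of 1.11 among the KSR lines. Cxcl1 was at 6.38 in iCD1 and 6.40 in FBS, so that the arrays differed by only -0.02. Pf4, the platelet chemokine gene beside Ppbp, was at 4.79 in iCD1 and 4.75 in FBS.

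The monocyte chemokine genes Ccl2 and Ccl7 were lower in iCD1, unlike 2 other genes of their cluster. Ccl2 was at 5.16 in iCD1, against 6.28 in FBS (-1.12), and Ccl7 was at 6.52, against 7.45 (-0.93). The KSR lines spanned only 0.18 for Ccl2 and 0.13 for Ccl7, so both differences were several times the spread between those lines. The next gene of the cluster, Ccl11, was at 4.39 in iCD1, against 4.64 in FBS (-0.25), which was within the range of the KSR lines. The 2 genes after it were higher in iCD1. Ccl8, another CC chemokine gene, was at 5.29 in iCD1, against 2.79 in FBS (2.50), and Ccl12 was at 4.13, against 2.93 (1.20). Ccl8 was above the low-value line on the iCD1 array and on no other, so its difference is set against a low value. Ccl12 only reached the line on the iCD1 array, where the line was at 4.13, and lay under it on all others. Both of its MEF values were thus low. Counted from the line on the FBS array, Ccl8 was at least 1.96-fold higher in iCD1.

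The stromal factors followed the same direction as Ccl2. Cxcl12 was at 6.43 in iCD1 MEFs, against 7.89 in FBS MEFs (-1.46), and Csf1 was at 7.43, against 8.36 (-0.94), each beyond the range of the KSR lines (0.27 and 0.49). Il6 was at 1.82 in iCD1, against 3.41 in FBS (-1.59), but both values lay in the range of olfactory receptor genes. The remaining genes differed little. Il11 was at 4.92 in iCD1, against 5.12 in FBS (-0.21), and Cxcl16 was at 4.34, against 4.61 (-0.27), both within the range of the KSR lines.

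**Figure D2:**
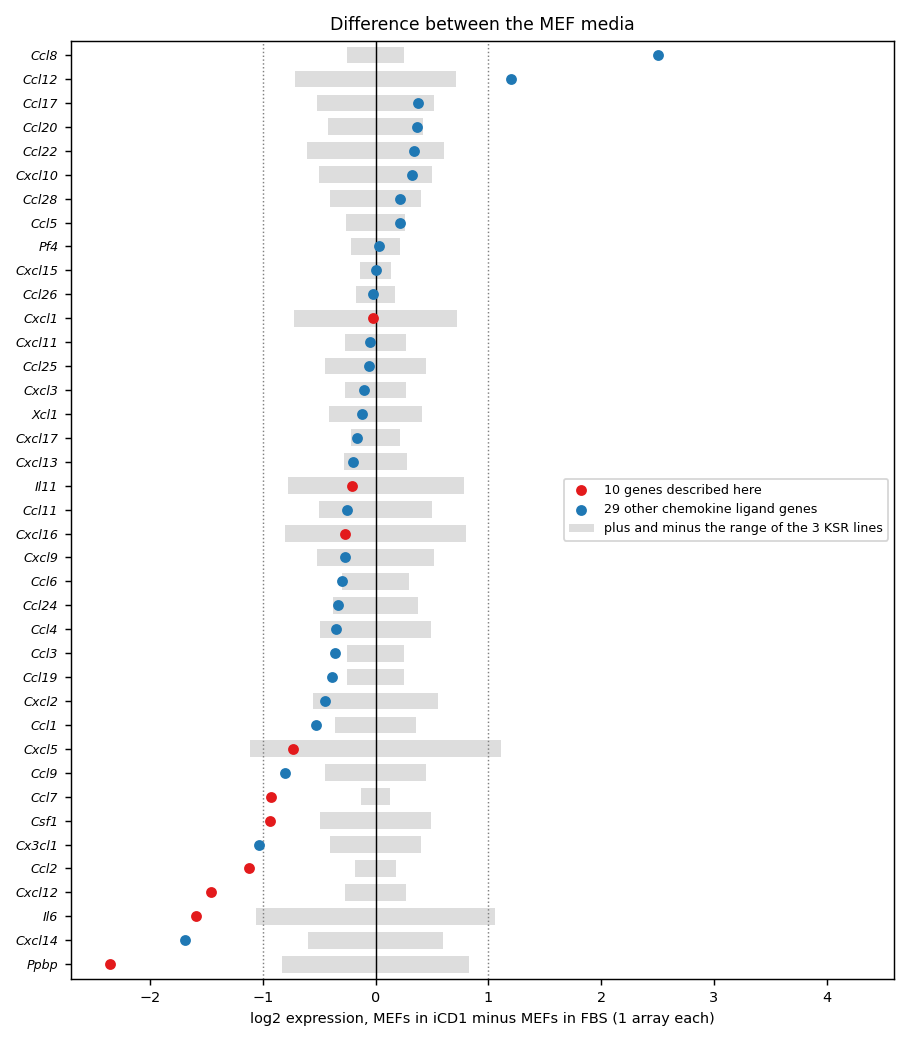
Difference between MEFs in iCD1 and MEFs in FBS, in log2 expression on the horizontal axis, for the 10 genes (red) and the 29 other chemokine ligand genes (blue), with dotted lines at 2-fold. Grey bars run from minus to plus the range of the same gene among the 3 KSR iPS lines. Ppbp is at the lower end with -2.35 and Ccl8 at the upper end with 2.50.

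Of the 29 other chemokine ligand genes, 2 were lower by 2-fold or more and 2 higher, with a median of -0.12. The lower ones were Cxcl14, at 4.72 in iCD1 against 6.41 in FBS (-1.69), and Cx3cl1, the membrane-tethered ligand of Cx3cr1, at 5.17 against 6.20 (-1.03). The higher ones were Ccl8 and Ccl12, the latter between low values. None of 11 measured receptor genes of the 10 factors differed 2-fold. Of these, Ccr1, Ccr2, Ccr3, Cxcr1, Cxcr2 and Cxcr6 lay under the low-value line on both arrays. Cxcr4, the receptor of Cxcl12, was at 5.36 in iCD1 and 4.85 in FBS. Other inflammatory products of fibroblasts split, with 3 of 14 lower and 5 higher by 2-fold or more. Lower in iCD1 were the plasminogen activator gene Plau (-1.42), the prostaglandin synthase gene Ptgs2 (-1.39) and the pentraxin gene Ptx3 (-1.35). Higher in iCD1 were the matrix protease genes Mmp3 (2.11), Mmp13 (1.7) and Mmp10 (1.41), the hyaluronan-binding protein gene Tnfaip6 (1.43) and the prostaglandin E synthase gene Ptges (1.12). Of 13 NF-kappaB genes 0 differed 2-fold, with a median of 0.06, and of 13 receptors and ligands upstream of it Il33, an alarmin gene, was the 1 that did, at 5.73 in iCD1 against 4.31 in FBS. The LIF receptor gene Lifr was higher in iCD1 as well, at 7.30 against 6.26, as the 1 of 13 genes of the interleukin-6 family list to differ 2-fold. Of 10 other growth factor genes 0 did.

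Markers of other cells were looked at beside these differences. Of 12 macrophage markers 1 differed by 2-fold, the lysozyme gene Lyz2 at 6.83 in iCD1 against 4.99 in FBS. The list's median level was 4.19 in iCD1 and 4.45 in FBS, with 6 and 7 of its members above the low-value line, and the leukocyte gene Ptprc lay under it on both arrays (3.70 and 4.01). Platelet and megakaryocyte markers had a median level of 4.78 in iCD1 and 5.02 in FBS over 4 measured genes, with 4 above the line on each array. Endothelial markers had median levels of 4.03 and 4.02, with 3 and 1 of 6 above the line, and 0 of 7 neutrophil and mast cell markers lay above it on either array. Fibroblast markers had a median difference of -0.01, with Dcn, Pdgfra and Col3a1 2-fold or more higher in iCD1. The part of other cell types in the differences between media was not tested.

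The KSR iPS lines were set against MEFs to see what remained of these factors after reprogramming, although medium changed along with cell type. Csf1, Cxcl12 and Ppbp fell, and the other 7 genes did not pass the threshold, several of them at about the level of MEFs. Against the 3 of 10 genes that fell, 14.3% of all genes fell in limma at an adjusted p of 0.05, and 0 of the 10 rose, as 12.1% of all genes did. The median difference of the 10 was -0.17, against 0.00 over all genes.

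Lines O4-1, O4-2 and O4-4 had Csf1 at 5.87, 6.25 and 5.75, against 7.43 and 8.36 in MEFs in iCD1 and in FBS. Every iPS line lay below both MEF arrays, as for 26.0% of all genes. The fall was -1.94 ± 0.19 (SE; limma, adjusted p = 0.0114), 3.83-fold. Cxcl12 was at 5.39, 5.66 and 5.51 in the same lines, against 6.43 and 7.89 in MEFs, again without overlap. It fell by 1.64 ± 0.12 on the log2 scale (limma, adjusted p = 0.00842). Ppbp was at 3.31, 4.06 and 3.23 in the lines, against 3.87 and 6.22 in MEFs, so that line O4-2 lay above the iCD1 array. Its fall of -1.51 ± 0.32 (limma, adjusted p = 0.0461) thus depended on the FBS array.

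Each MEF array alone gave a different picture for several genes. Against FBS MEFs alone the lines fell in Ppbp by -2.68 ± 0.41, in Csf1 by -2.41 ± 0.24 and in Cxcl12 by -2.37 ± 0.15 (limma, adjusted p = 0.036, 0.0225 and 0.0165). Against iCD1 MEFs alone Csf1 fell by -1.47 ± 0.24 and Cxcl12 by -0.91 ± 0.15 (limma, adjusted p = 0.0344 and 0.036), while Ppbp was at -0.34 ± 0.41 (limma, adjusted p = 0.637). Of all genes, 8.34% fell against FBS MEFs and 11.0% against iCD1 MEFs. Ccl2 had opposite signs, at -0.38 ± 0.13 against FBS MEFs (limma, adjusted p = 0.146) and with a rise of 0.73 ± 0.13 against iCD1 MEFs (limma, adjusted p = 0.0383). These comparisons share the 3 KSR arrays. With either O4-1 or O4-2 left out, 0 of the 10 genes and 0 of all genes were called by limma. Without O4-4 it called Csf1 and Cxcl12, among 2776 of all genes. Each of these fits had 1 residual degree of freedom fewer, and why they differed was not tested. The differences moved little for Csf1, from -2.08 to -1.84, and for Cxcl12, from -1.71 to -1.57. That of Ppbp moved more, from -1.77 to -1.36, and Ppbp was not called with any line left out. Unadjusted p-values under 0.05 were held without O4-1 by Csf1, Cxcl12 and Il11 (and 5804 of all genes), and without O4-2 by Csf1, Cxcl12 and Ppbp (and 6924 of all genes).

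The monocyte chemokine genes Ccl2 and Ccl7 lay in the iPS lines between the MEF values. Of the neutrophil chemokines, Cxcl1 and Cxcl5 lay between or near them except in line O4-4, which was above both MEF arrays. Lines O4-1, O4-2 and O4-4 had Ccl2 at 5.82, 5.87 and 6.0, against 5.16 and 6.28 in MEFs in iCD1 and in FBS, a difference of 0.17 ± 0.10 (limma, adjusted p = 0.308). Ccl7 was at 6.87, 6.99 and 6.86 in the lines, against 6.52 and 7.45 in MEFs (-0.08 ± 0.09; limma, adjusted p = 0.618). For both genes all lines lay between the MEF arrays. Cxcl1 was at 6.26, 6.35 and 6.97 in the lines, against 6.38 and 6.40 in MEFs (0.14 ± 0.28; limma, adjusted p = 0.773). Cxcl5 was at 5.92, 5.79 and 6.89 in the lines, against 5.41 and 6.14 in MEFs (0.43 ± 0.42; limma, adjusted p = 0.537). Line O4-4 held the highest value of the 7 arrays for both, and among the KSR lines it was highest for 4 of the 10 genes, as for 34.4% of all genes. The fibroblast marker median was also highest in O4-4 among the lines (7.54), and the part of this in its chemokine levels was not tested.

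Of the other members, Il11 and Cxcl16 lay above the low-value line on most arrays, and Il6 lay under it throughout. Il11 was at 3.78, 4.56 and 4.31 in the lines, against 4.92 and 5.12 in MEFs, with all lines below both MEF arrays, as for 26.0% of all genes, but it did not pass (-0.81 ± 0.28; limma, adjusted p = 0.13). Cxcl16 was at 4.51, 4.96 and 4.17 in the lines, against 4.34 and 4.61 in MEFs (0.08 ± 0.28; limma, adjusted p = 0.883). Il6 was at 2.10, 1.95 and 3.01 in the lines, against 1.82 and 3.41 in MEFs (-0.26 ± 0.40; limma, adjusted p = 0.703), all of them under the low-value line.

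**Figure D3:**
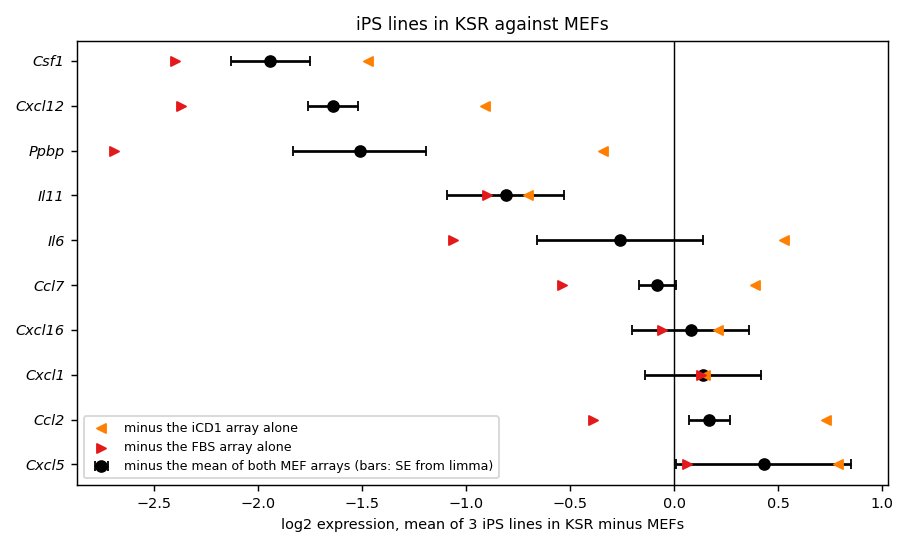
Mean of the 3 KSR iPS lines minus MEFs for the 10 genes, in log2 expression. Black points with SE bars from limma use the mean of both MEF arrays, and triangles use the iCD1 array (orange) or the FBS array (red) alone. Csf1 and Cxcl12 stay below 0 against either MEF array, while Ppbp is at -2.68 against FBS and -0.34 against iCD1.

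The other chemokine ligands, the receptors and the genes of inflammatory signalling are given next, and 14.3% of all genes fell in the same comparison. Of 29 other chemokine ligands 3 fell and 0 rose in the KSR lines, with a median of -0.02. These were Pf4, which fell by 0.97 ± 0.11, Ccl8, which fell by 0.96 ± 0.12, and Cx3cl1, which fell by 0.92 ± 0.17 (limma, adjusted p = 0.0137, 0.0155 and 0.0327). The fall of Ccl8 was measured against a MEF mean of 5.29 and 2.79 in iCD1 and in FBS, and lines at 2.97 to 3.22 lay above the FBS array. Of 22 chemokine receptors Ccr4 rose by 1.03 ± 0.19 and Ackr4, a scavenging receptor, fell by 0.44 ± 0.08 (limma, adjusted p = 0.0334 and 0.0337), with Ccr4 under the low-value line on every array.

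Receptors of the 10 factors were measured in 11 cases, and 3 fell. The shared chain gene Il6st was at 8.16, 7.89 and 8.79 in the lines, against 9.88 and 10.16 in MEFs (-1.74 ± 0.33; limma, adjusted p = 0.0359). Il6ra fell by 0.73 ± 0.16 (limma, adjusted p = 0.0474), and Csf1r, the receptor of Csf1, fell by 0.63 ± 0.08 (limma, adjusted p = 0.0172) to levels under the low-value line. Cxcr4 was at 4.52, 5.37 and 5.62 in the lines, against 5.36 and 4.85 in MEFs (0.07 ± 0.40; limma, adjusted p = 0.929), and Ackr3, which also binds Cxcl12, was at -0.75 ± 0.23 (limma, adjusted p = 0.0989). Ccr1, Ccr2, Ccr3, Cxcr1, Cxcr2 and Cxcr6 did not pass, and each lay under the low-value line on every array. The Il11 receptor gene Il11ra1 was not among the genes measured here.

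Of 13 genes of the interleukin-6 family and its signalling 6 fell and 0 rose. Besides Il6st and Il6ra these were the oncostatin M receptor gene Osmr, which fell by 3.14 ± 0.16, the kinase genes Jak2, which fell by 2.83 ± 0.24, and Jak1, which fell by 2.28 ± 0.11, and Stat3, which fell by 1.21 ± 0.16 (limma, adjusted p = 0.00702, 0.00936, 0.00668 and 0.0187). Lifr did not pass, at 0.30 ± 0.33 (limma, adjusted p = 0.593). Of 13 receptors and ligands upstream of NF-kappaB 7 fell and 0 rose, with a median of -0.73. The TNF receptor gene Tnfrsf1a fell by 2.81 ± 0.09, the endotoxin receptor gene Tlr4 fell by 2.16 ± 0.10 and the adaptor gene Myd88 fell by 1.35 ± 0.10 (limma, adjusted p = 0.00659, 0.00659 and 0.0084). Il17ra fell by 1.12 ± 0.11, Il18 fell by 0.92 ± 0.16 and Il33 fell by 0.75 ± 0.13 (limma, adjusted p = 0.0115, 0.0302 and 0.0322), the last with lines at 4.11 to 4.42 that overlapped the FBS array. Il18 lay under the low-value line on every array, so its fall is between low values. Of 13 NF-kappaB and feedback genes 4 fell and 0 rose, with a median of -0.40. Nfkbiz fell by 1.53 ± 0.13, the subunit genes Rel and Rela fell by 1.08 ± 0.23 and by 0.88 ± 0.13, and the inhibitor gene Nfkbie fell by 0.62 ± 0.11 (limma, adjusted p = 0.00928, 0.0451, 0.0236 and 0.0328).

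Other inflammatory fibroblast products fell in 6 of 14 cases and rose in 0, with a median of -1.48. The hyaluronan synthase gene Has2 fell by 3.76 ± 0.39, Mmp13 fell by 2.96 ± 0.26 and Tnfaip6 fell by 2.85 ± 0.13 (limma, adjusted p = 0.0123, 0.00975 and 0.00659). Ptgs2 fell by 2.52 ± 0.26, and Plau and the adhesion molecule gene Vcam1 each fell by 2.42 (SE 0.19 and 0.12; limma, adjusted p = 0.00878 and 0.00668). Of 10 other growth factor genes Kitl, the ligand of Kit, fell by 1.86 ± 0.10 (limma, adjusted p = 0.00702). These calls too were lost when O4-1 or O4-2 was left out. Among markers of other cells, 1 of 12 macrophage markers fell (Csf1r), 1 of 4 platelet markers fell (Pf4) and 1 of 7 neutrophil and mast cell markers fell. Of 6 endothelial markers Kdr and Cdh5 fell, while Pecam1 rose by 3.57 ± 0.32 and Tek by 1.40 ± 0.18 (limma, adjusted p = 0.00993 and 0.0166). Pecam1 was at 8.25 in line O4-1 in 2i and 8.36 in ES cells as well. The part of endothelial cells in these values was not tested. The neutrophil and mast cell markers all lay under the low-value line on every array.

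Line O4-1 in 2i was set against the KSR lines to see whether the medium of pluripotent cells went with these factors. Of the 10 genes, 5 were lower in 2i than in all 3 KSR lines, as 23.7% of all genes were, and these 5 were Csf1, Cxcl5, Cxcl12, Ccl7 and Ccl2. In limma 0 of the 10 and 0 of all genes passed after adjustment (0.0% of all genes). At an unadjusted p under 0.05 the same 5 were lower and 0 higher, beside 3.0% of all genes lower and 3.72% higher. The number lower was 2 without line O4-1 (Csf1 and Cxcl12) and 3 without line O4-2 (Csf1, Cxcl12 and Ccl7). Without line O4-4, Csf1, Cxcl5, Cxcl12 and Ccl7 were lower by this measure and Ccl2 was not. Il6, under the low-value line, was then higher (0.7). Of all genes, 651, 945 and 1783 had an unadjusted p under 0.05 without O4-1, O4-2 and O4-4. The differences of the 5 genes named above stayed below 0 in each case. The median difference of the 10 was -0.34, against 0.01 over all genes.

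Csf1 was at 4.56 in 2i, against 5.87, 6.25 and 5.75 in the KSR lines, a difference of -1.39 ± 0.24 (limma, adjusted p = 0.727). Cxcl5 was at 4.64 in 2i, against 5.92, 5.79 and 6.89 in KSR (-1.56 ± 0.53; limma, adjusted p = 0.727), and Cxcl12 was at 4.83, against 5.39, 5.66 and 5.51 (-0.69 ± 0.15; limma, adjusted p = 0.727). Ccl7 was at 6.41 in 2i, against 6.87, 6.99 and 6.86 in KSR (-0.50 ± 0.12), and Ccl2 at 5.47, against 5.82, 5.87 and 6.0 (-0.42 ± 0.13), both with the same adjusted p in limma. Within line O4-1 the differences between 2i and KSR were -1.31 for Csf1, -1.28 for Cxcl5, -0.55 for Cxcl12, -0.46 for Ccl7 and -0.35 for Ccl2. Il11 ran the other way, at 4.83 in 2i, above all KSR lines (0.61 ± 0.36; limma, adjusted p = 0.763). Cxcl1, Cxcl16, Ppbp and Il6 lay within the range of the KSR lines.

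ES cells in 2i were lower than all KSR lines in the same 5 genes and in Cxcl1, so in 6 of 10, as 27% of all genes were. The ES cells differed from the KSR lines in origin as well as in medium, and these cannot be told apart here. Both 2i arrays lay below all KSR lines for 5 of the 10, as for 13.1% of all genes, and both were set against the same KSR arrays. In limma 0 of the 10 and 0 of all genes passed (0.0% of all genes), while at an unadjusted p under 0.05 Ccl2 and Cxcl12 were lower and 0 of the 10 higher, beside 4.31% of all genes lower and 4.45% higher. By this measure the same genes were lower without O4-1, and Csf1 as well without O4-2. Without O4-4, Ccl2 and Cxcl5 were lower and Il6 was higher. Of all genes, 815, 1185 and 2268 had such a p-value without O4-1, O4-2 and O4-4. Csf1 was at 5.27 in ES cells (-0.69 ± 0.24 against the KSR lines; limma, adjusted p = 0.572), Cxcl12 at 4.89 (-0.63 ± 0.15; limma, adjusted p = 0.571) and Ccl2 at 5.25 (-0.64 ± 0.13; limma, adjusted p = 0.571). Cxcl5 was at 5.29 (-0.91 ± 0.53; limma, adjusted p = 0.668) and Ccl7 at 6.65 (-0.26 ± 0.12; limma, adjusted p = 0.615). Il6 was at 3.41, above all KSR lines (1.06 ± 0.50; limma, adjusted p = 0.618) but under the low-value line. Between the 2i cultures, with 1 array each and no test, ES cells were 0.70 higher than iPS cells in Csf1 and 0.65 higher in Cxcl5, and differed by 0.06 in Cxcl12.

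Fibroblast markers are given beside these values. Their median level was 5.91 in line O4-1 in 2i and 7.25 in ES cells in 2i, against 6.63, 6.99 and 7.54 in the KSR lines. Of the 9 markers, 8 were lower in 2i iPS cells than the KSR mean and 3 were lower in ES cells. Thy1 was at 4.71 in 2i iPS cells and 5.19 in ES cells, against 6.17, 5.96 and 5.70 in the KSR lines, and Col1a1 was at 8.90 and 9.87, against 9.17, 9.21 and 10.32. The part of fibroblast RNA in the lower values in 2i was not tested. Other inflammatory products had a median of -0.39 in 2i iPS cells and 0.12 in ES cells against the KSR lines, and other chemokine ligands 0.00 and 0.02.

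**Figure D4:**
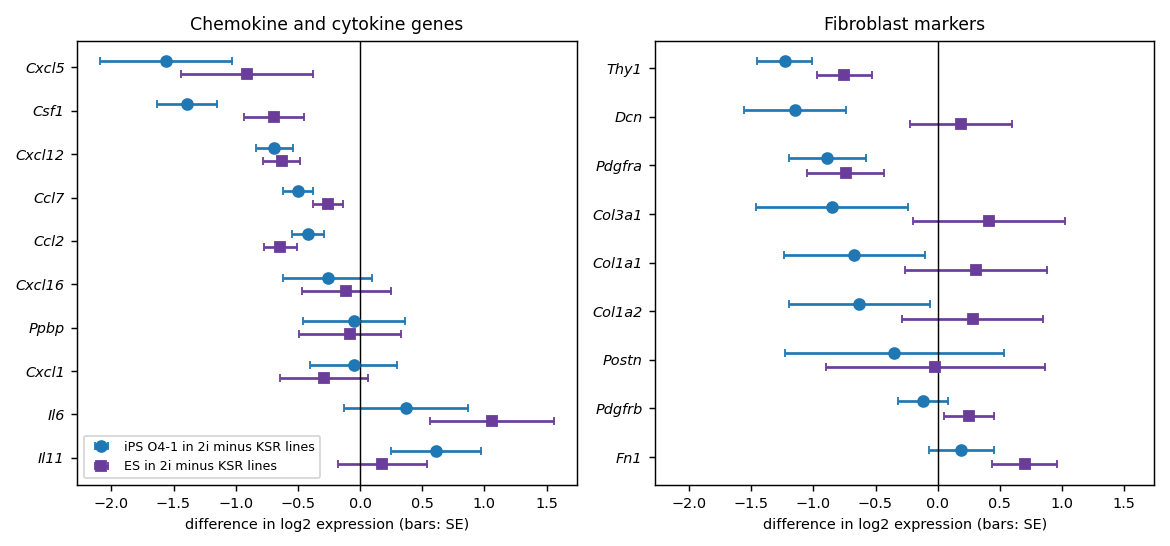
Line O4-1 in 2i (blue) and ES cells in 2i (purple), each minus the mean of the 3 KSR iPS lines, in log2 expression with SE bars from limma, for the 10 genes (left) and 9 fibroblast markers (right). Csf1, Cxcl5, Cxcl12, Ccl7 and Ccl2 are below 0 in both cultures, while the collagen genes are below 0 in the iPS array and above 0 in the ES array.

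For each gene the 3 genes with the most similar profile were found by the root mean square difference between profiles centred on their mean over the 7 arrays. The cytoskeletal adaptor gene Sorbs2 was nearest to Ppbp, at a distance of 0.18 log2 units where Ppbp itself spread by 0.97 about its mean, followed by Fhl1 (0.24) and the TWEAK receptor gene Tnfrsf12a (0.31). Sorbs2 was at 3.75 in iCD1 MEFs, against 6.18 in FBS MEFs, and between 3.16 and 4.32 in the pluripotent arrays. Nearest to Cxcl12 (spread 0.99) were Tspan2 (0.13), the BMP modulator gene Bmper (0.15) and Hs6st2 (0.18). Nearest to Csf1 (spread 1.20) were Lrrc8c (0.16), Thy1 (0.19) and the calponin gene Cnn2 (0.20). The other 7 genes spread by 0.23 to 0.66, and their nearest genes lay at 0.07 to 0.35. With 19938 genes and 7 arrays close profiles are common, and the one nearest to Ccl2 was that of an olfactory receptor gene, Olfr1089 (0.13).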

How the data were processed

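The deposited table holds log2 values, 1 for each probe set, and was used as it stands. RMA and Partek are the tools the authors name, per the submitters' processing notes, and their versions and settings are not stated there. Of 28853 probe sets 21789 had 1 gene symbol in the platform annotation, and of several for a gene the one with the highest mean was kept (19938 genes). Array medians lay between 4.97 and 5.03.

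Limma 3.58.1 in R 4.3.3 fitted 5 group means to 7 arrays, with two-sided p-values adjusted by Benjamini-Hochberg across the 19938 genes and a threshold of 0.05. The 2 residual degrees of freedom came from the KSR lines and the prior added 1.62, so single arrays were assumed to vary like them. Errors after differences are limma's SE. MEFs in iCD1 against FBS have no test, and the number of arrays limits all precision.

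The 10 genes and the 14 lists used beside them (188 entries, 15 not used here) were chosen with earlier results of these data known. Named were the 10 genes, their receptors, up to 6 list members each way past the threshold or 2-fold, defining markers, and the 3 nearest profiles. Alternatives were leaving out a KSR line, quantile normalization, averaged probe sets, a filter at the median level, an intensity trend, either MEF array alone and a 1.5-fold threshold.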

Additional observations from a re-analysis of the deposited data

How the results depend on the processing

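The small number of arrays limits every test, and low values cannot be separated from background without detection calls. The number of the 10 genes called in KSR iPS lines against MEFs was 3, and it ranged from 0 to 2 when 1 KSR line was left out. It was 2 to 3 under the other alternatives run (quantile normalization, averaged probe sets, the filter at the median level, the intensity trend and either MEF array alone). The set changed against iCD1 MEFs alone, where Csf1 and Cxcl12 fell, Ccl2 rose and Ppbp was not called. Under the filter 6 of the 10 genes were tested. In both 2i comparisons it stayed at 0 under every alternative run, as did the count over all genes. Between the MEF media 7 of the 10 genes were lower by 1.5-fold or more, as 4.64% of all genes were, and 5 were lower by 2-fold after quantile normalization, with Ccl7 at -1.03.

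Signs turned only for differences that had not passed. When 1 KSR line was left out, differences of KSR lines against MEFs ranged from -0.08 to 0.27 for Cxcl1 (lowest without O4-4) and from -0.13 to 0.27 for Cxcl16 (lowest without O4-2). Differences of 2i iPS cells against KSR ranged from -0.19 to 0.17 for Cxcl1 (highest without O4-4) and from -0.20 to 0.21 for Ppbp (highest without O4-2). Those of ES cells against KSR ranged from -0.23 to 0.18 for Ppbp and from -0.30 to 0.10 for Cxcl16 (both highest without O4-2), and from -0.04 to 0.35 for Il11 (lowest without O4-1). Against FBS MEFs alone Ccl2 was at -0.38 and Cxcl16 at -0.06 in the KSR lines, and against iCD1 MEFs alone Ccl7 was at 0.39 and Il6 at 0.54. After quantile normalization Cxcl1 was at 0.0047 in 2i iPS cells against KSR. Of all genes, limma called 5260 in KSR lines against MEFs, 2776 without O4-4 and 2968 against FBS MEFs alone. The cause of these turns was not tested. No paired analysis was possible because the groups compared share only line O4-1.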
